A study of Mus musculus with 4 samples.

Results

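The heat shock and chaperone genes of the newborn mouse inner ear were followed here in hair cells (HCs) and in their epithelial neighbours. Of the 12814 genes in the deposited expression table, 70 carried a symbol of the Hsp, Dnaja, Dnajb, Dnajc, Hsf or Bag families and were taken as members by name alone, 69 of them protein-coding genes and 1 a pseudogene. The cells came from postnatal day 1 Atoh1/nGFP mice of C57BL/6 background, in which nuclear green fluorescent protein (GFP) is made under an Atoh1 enhancer and marks HCs. Flow cytometry of cells carrying the epithelial surface protein CD326 gave GFP-positive HCs and GFP-negative epithelial non-sensory cells (ENSCs). Both were taken from the cochlea and from the vestibular system. Per the methods of the study, total RNA of the 4 populations was amplified and sequenced. All 4 populations shared the transgene and the strain. The table held 1 column per population, so that a difference between populations had no replicate error behind it, no test was made and a fold difference describes these libraries.

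Chaperones bind unfolded or partly folded proteins and keep them from aggregating until they fold, assemble, cross a membrane or are degraded. HSP70 proteins do this in cycles of ATP hydrolysis that DNAJ (HSP40) proteins start and that nucleotide exchange factors, such as the HSP110 and BAG proteins, complete. HSP90 acts later on selected clients, small heat shock proteins hold unfolded proteins without ATP, and the endoplasmic reticulum (ER) and mitochondria have sets of their own. Heat shock factors switch many of the cytosolic genes on under stress through heat shock elements, and the unfolded protein response switches on the ER genes through ER stress elements. In the inner ear, HSP70 induced in supporting cells is known for protecting HCs from ototoxic drugs. The name of a family does not fix the function of every member. Hspb11, for example, encodes an intraflagellar transport protein and Dnajb13 an axonemal radial spoke protein.

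Values are read counts per gene that the authors quantile-normalized over the 4 columns with a floor of 20, called signal below. Every column therefore held the same set of values, with a total of 7830343 and a median of 120, and a signal is a rank-based level with no known depth. Low signals were tied in an order taken from the other columns up to 24.25 in cochlear HCs, 22.75 in cochlear ENSCs, 30.5 in vestibular HCs and 20 in vestibular ENSCs, and a fold against a signal in that range is a lower bound. Above that range in all 4 libraries were 56 of the 70 members. The labels were checked on marker genes: all 10 HC markers, Atoh1, Pou4f3, Gfi1 and Myo7a among them, exceeded 3-fold in favour of HCs in both organs, and 9 of the 10 stood at the floor or 0.25 above it in vestibular ENSCs. Of the 4 epithelial markers, 3 were at least 3-fold higher in ENSCs of the cochlea and 4 in ENSCs of the vestibular system, while Cdh1 was slightly higher in cochlear HCs (6003 against 4852.75). The 10 supporting cell markers followed the labels less closely. In the cochlea 4 were at least 3-fold lower in HCs and none higher, and in the vestibular system 3 were lower and 1 higher, Sox2, at 3960.75 in HCs against 465.75 in ENSCs. Markers of other cells were not absent. The endothelial receptor Kdr had a signal of 1461.75 in vestibular ENSCs and at most 29.75 elsewhere. The summed signal of 5 mesenchyme markers was 0.208% of the column in cochlear ENSCs and 0.0277% in vestibular ENSCs, against 0.0128% and 0.00265% in the HCs. Of 5 listed neuron markers 3 were measured, Nefl, Nefm and Snap25, all at least 3-fold higher in HCs of both organs. Which cells expressed these 3 was not tested. Per the methods of the study, requiring CD326 removed neuronal cells that may have carried some GFP.

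Fewer of the 70 genes than of all genes were 3-fold apart between HCs and ENSCs in the cochlea, about the same share in the vestibular system, and in both organs some were higher and some lower. In the cochlea 4 members were at least 3-fold higher in HCs, beside 8.39% of all genes, and 2 were at least 3-fold lower, beside 9.2% of all genes. Together these 6 members were 8.57% of the 70, against 17.6% of all genes. In the vestibular system 12 members were at least 3-fold higher in HCs, beside 13.8% of all genes, and 7 were lower, beside 14.3%. The 19 members made 27.1%, close to the 28.1% of all genes. The median log2 ratio of HC to ENSC signal over the members was 0.10 for the cochlea and 0.21 for the vestibular system, where the medians of all genes were 0 and -0.00453. In these sorted populations, fewer cells that express a gene and less RNA per cell cannot be told apart.

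The direction was shared by the organs for 45 of the 70 members, beside 63.9% of all genes. HCs were above ENSCs in both organs for 27 members, beside 32% of all genes, and below them for 18, beside 31.9%. At least 3-fold higher in HCs of both organs were only Hspa2 and Dnajb13, beside 4.99% of all genes. At least 3-fold lower in both were only Bag3 and Hspb6, beside 4.66%. The cochlear log2 ratio of Dnajb13 fell short of 3-fold with a floor of 50 (1.08) and with a pseudocount of 20 (1.576). The cochlear ratio of Bag3 did too with that pseudocount (-1.54). Across the 70 members the cochlear and the vestibular log2 ratios had a Pearson correlation of 0.655 and a Spearman correlation of 0.582, against 0.603 and 0.544 over all genes. The points of these correlations are genes of the same 4 libraries, so they are descriptions. The members took 1.10% of the column total in cochlear HCs, 1.18% in cochlear ENSCs, 1.003% in vestibular HCs and 1.30% in vestibular ENSCs, and 45 of them stayed under 3-fold in each of the 4 pairwise contrasts, 64.3% of the 70 against 57.9% of all genes.

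**Figure D1:**
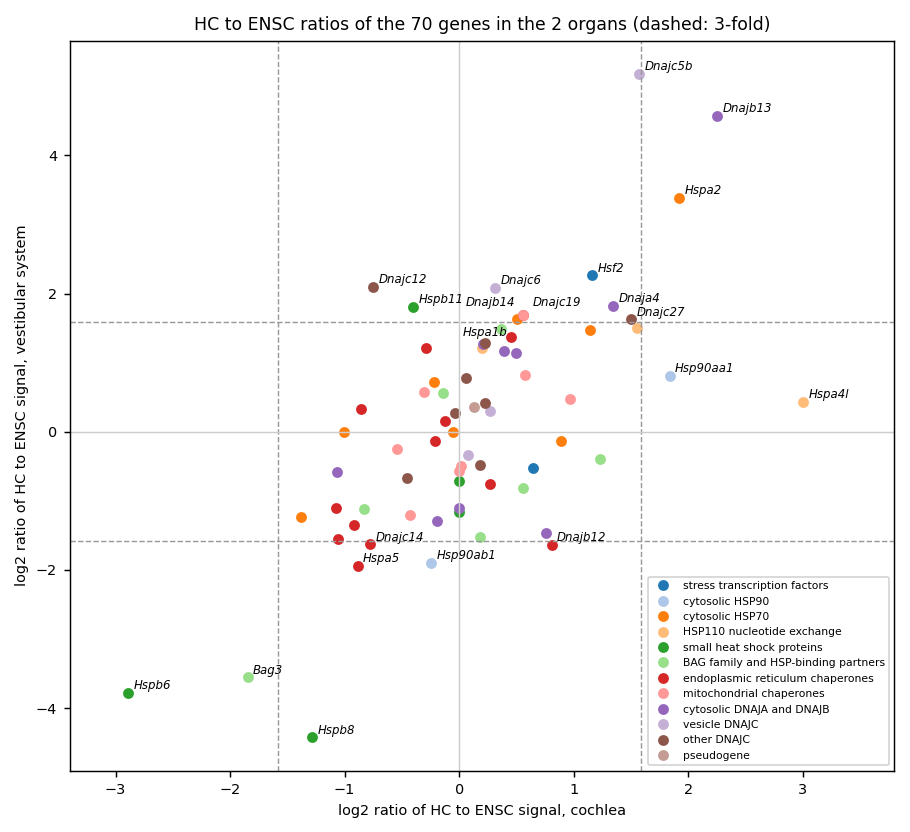
Each point is 1 of the 70 genes, with the log2 ratio of HC to ENSC signal in the cochlea on the horizontal axis and in the vestibular system on the vertical axis, coloured by role, and dashed lines mark 3-fold. Hspa2 and Dnajb13 lie past both upper lines, Bag3 and Hspb6 past both lower lines, and most other genes lie inside the square.

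Of the 2 stress transcription factors, Hsf2 was higher in HCs of both organs. Hsf2 encodes a factor that trimerizes on heat shock elements and is active in development. The signal of Hsf2 was 936 in cochlear HCs, 418 in cochlear ENSCs, 1004 in vestibular HCs and 209 in vestibular ENSCs. Both HC libraries were above both ENSC libraries, and the log2 ratio was 1.16 for the cochlea and 2.27 for the vestibular system. Hsf1 encodes the main switch of the heat shock response. Hsf1 had a signal of 75 in cochlear HCs and 48 in cochlear ENSCs, and of 82.5 in vestibular HCs and 118 in vestibular ENSCs. Its ratio was above 0 in the cochlea (0.64) and below 0 in the vestibular system (-0.52), where it turned to 0.66 after a correction for exonic length and GC content that is described with the last results. Hsf1 activity is set mostly by release from chaperones and by phosphorylation, which these RNA levels do not measure.

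The isoforms of cytosolic HSP90 went separate ways. Hsp90aa1 (chr12:111928815-111940938) encodes the inducible isoform and Hsp90ab1 (chr17:45704724-45710220) the constitutive one. Cochlear HCs had a Hsp90aa1 signal of 3155 and cochlear ENSCs of 883, while vestibular HCs had 2745 and vestibular ENSCs 1569. HCs thus had 3.57 times the ENSC signal in the cochlea and 1.75 times in the vestibular system. For Hsp90ab1 the signal was 10665 in HCs and 12638 in ENSCs of the cochlea, and 5342 in HCs and 19907 in ENSCs of the vestibular system. The constitutive gene thus differed little in the cochlea, with a log2 ratio of -0.24, and was lowest in vestibular HCs and highest in vestibular ENSCs, with a log2 ratio of -1.90. Per kb of exon, the inducible gene had 0.226 of the signal of the constitutive one in cochlear HCs, 0.0533 in cochlear ENSCs, 0.392 in vestibular HCs and 0.0601 in vestibular ENSCs. The quotient was 4.23 times as high in HCs as in ENSCs in the cochlea and 6.52 times in the vestibular system. Of the 50-nt windows in the exons of Hsp90aa1, 56.2% occur elsewhere in the genome, against 7.27% for Hsp90ab1, so reads of the inducible gene could have been lost or shared with copies in every library.

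HSP70 genes of the cytosol held Hspa2, the member with the highest signal per kb of exon in HCs among those past 3-fold in favour of HCs. Hspa2 (chr12:77505163-77507921, plus strand, ENSMUSG00000059970) encodes an HSP70 first known from the testis, where it is needed in meiosis. In the cochlea Hspa2 had a signal of 7835.5 in HCs and 2067 in ENSCs, and in the vestibular system of 7385 and 708.5. HCs of both organs had nearly the same level, and the distance to ENSCs was 3.79-fold in the cochlea and 10.4-fold in the vestibular system. Per kb of exon Hspa2 ranked first of the 70 in vestibular HCs, with a signal of 2931 per kb, second in cochlear HCs with 3109 per kb and eighth in cochlear ENSCs with 820.1 per kb, and it was not among the 10 leading members in vestibular ENSCs. No 50-nt window of its exons was found elsewhere in the genome. Beside Hspa5, the ER member of the same family, its signal per kb stood at 2.45 in cochlear HCs, 0.350 in cochlear ENSCs, 2.67 in vestibular HCs and 0.0668 in vestibular ENSCs.

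**Figure D2:**
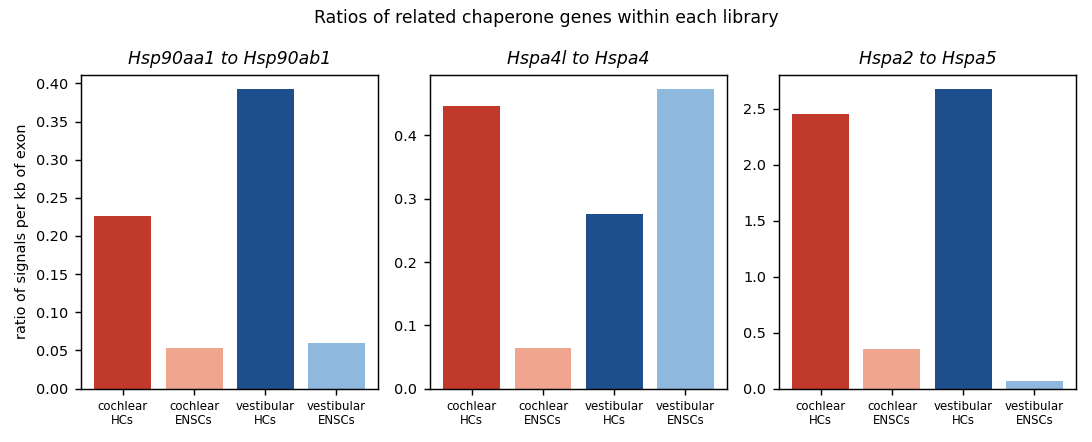
Bars give, for each library, the signal per kb of exon of 1 chaperone gene divided by that of a related one, on axes that start at 0. The Hsp90aa1 to Hsp90ab1 quotient is higher in both HC libraries (0.226 and 0.392) than in the ENSC libraries (0.0533 and 0.0601), the Hspa4l to Hspa4 quotient is low only in cochlear ENSCs (0.0639), and the Hspa2 to Hspa5 quotient is above 2 in both HC libraries.

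The stress-inducible HSP70 genes were also higher in HCs, by less than the threshold except in 1 case. The signal of Hspa1a was 930.5 in cochlear HCs, 421.5 in cochlear ENSCs, 1328.5 in vestibular HCs and 478 in vestibular ENSCs. Hspa1b had a signal of 665 in cochlear HCs and 468.5 in cochlear ENSCs, and of 858 in vestibular HCs and 278 in vestibular ENSCs. Their log2 ratios were 1.14 and 0.51 for the cochlea, 1.48 and 1.63 for the vestibular system, so that only Hspa1b in the vestibular system passed 3-fold, and with a pseudocount of 20 it did not (1.56). These neighbouring genes on chromosome 17 are nearly identical, with 61.0% of the 50-nt windows of Hspa1a and 62.4% of those of Hspa1b found elsewhere, and their separate levels are uncertain. Cochlear HCs had a Hspa8 signal of 209.5 and cochlear ENSCs of 113, while vestibular HCs had 378 and vestibular ENSCs 414. Hspa8 encodes the constitutive HSC70, which also uncoats clathrin vesicles, and with 37.3% of its windows found elsewhere its level is uncertain too. It did not differ by 3-fold between HCs and ENSCs in either organ, and among ENSCs the vestibular library was higher, with a cochlear to vestibular log2 ratio of -1.87. Hspa13, an HSP70 relative associated with ER membranes, was the member of this group with the lowest ratio in both organs (-1.38 and -1.23). After the length and GC correction its vestibular ratio was past 3-fold (-1.91). The other members were Hspa12a and Hspa14, at signals between 102 and 358 in all libraries, and Hspa1l, which was above the floor only in cochlear ENSCs (40.25) and overlaps another gene on the opposite strand over 72.0% of its exons.

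The HSP110 genes, whose products eject ADP from HSP70, were higher in HCs in each of the 6 ratios as deposited, and they differed in which libraries were high. For Hspa4l the signal was 7742 in HCs and 967 in ENSCs of the cochlea, and 4158 in HCs and 3071 in ENSCs of the vestibular system. The cochlear ENSC library was alone in being low: the ratio of HC to ENSC was 8.01-fold in the cochlea, the largest of the 70 members there as deposited, though members with cochlear ENSCs in the tied range, Dnajb13 among them, have lower bounds only, and 1.35-fold in the vestibular system, where the log2 ratio of 0.44 turned to -0.41 after the length and GC correction. In the cochlea Hspa4 had a signal of 8140 in HCs and 7095 in ENSCs, and in the vestibular system of 7062.5 and 3045.5, where vestibular ENSCs were the low library. The signal of Hsph1 was 1219.75 in cochlear HCs, 415 in cochlear ENSCs, 1881.5 in vestibular HCs and 662 in vestibular ENSCs, with log2 ratios of 1.56 and 1.51, both just short of 3-fold. Together the 3 genes took 0.218% of the column in cochlear HCs, 0.108% in cochlear ENSCs, 0.167% in vestibular HCs and 0.0866% in vestibular ENSCs.

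The promoters of heat shock genes are known for heat shock elements, and stretches that hold their letters are shown for 8 members, chosen for their place in the comparisons of this and the next paragraphs. RefSeq promoter windows (GRCm38.p6, 250 bases before to 50 after the start) were matched for 56 of the 70 members, and both strands were searched for inverted GAA units. A run of 3 units, GAANNTTC followed by NNGAA, was in the windows of Hsph1, Hspd1, Hspe1 and Dnajb6, 4 of the 56, beside 0.662% of 27025 RefSeq genes and 0.604% of the 8607 genes of the table with a window. The 2-unit motif GAANNTTC, which such a run contains, was in 13 of the 56 (23.2%) beside 9.04% and 6.84%, and the 2-unit motif TTCNNGAA was in 6 (10.7%) beside 9.60% and 8.03%. In the following stretches, written 5′ to 3′ on the strand of the gene and placed on mm9 by exact match, capitals mark the matched units.
Hsph1, mm9 chr5:150438863-150438974, minus strand: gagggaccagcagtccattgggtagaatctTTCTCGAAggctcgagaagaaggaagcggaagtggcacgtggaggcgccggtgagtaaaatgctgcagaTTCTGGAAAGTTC
Hspd1, mm9 chr1:55144873-55144950, minus strand: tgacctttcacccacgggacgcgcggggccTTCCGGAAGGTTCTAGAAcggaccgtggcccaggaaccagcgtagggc
Dnajb6, mm9 chr5:30062362-30062434, plus strand: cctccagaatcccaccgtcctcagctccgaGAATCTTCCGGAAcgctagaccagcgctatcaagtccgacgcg
Hspa1a, mm9 chr17:35109168-35109235, minus strand: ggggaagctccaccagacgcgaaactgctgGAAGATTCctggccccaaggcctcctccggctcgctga
Hspa1b, mm9 chr17:35096250-35096317, minus strand: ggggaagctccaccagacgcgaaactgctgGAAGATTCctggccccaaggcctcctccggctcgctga
Hspb6, mm9 chr7:31338170-31338237, plus strand: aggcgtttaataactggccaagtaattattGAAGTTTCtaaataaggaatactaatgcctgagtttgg
Hspb8, mm9 chr5:116872864-116872881, minus strand: gaagccaggaGAAGTTTC
Bag3, mm9 chr7:135667129-135667146, plus strand: gatgggaccaGAAGTTTC
The Hspa1a and Hspa1b stretches are the same letters. The Hspb6 stretch begins 973 bases from the annotated mm9 start of the gene. Hspd1 and Hspe1 start close to each other on opposite strands of chromosome 1 and share the element. Genes with these letters were on both sides of the HC to ENSC comparison: in the vestibular system the log2 ratio was 1.51 for Hsph1, 1.63 for Hspa1b, 1.26 for Dnajb6, -0.25 for Hspd1, -3.55 for Bag3 and -4.42 for Hspb8. A match is a description of the letters, not of binding.

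The 3 lowest vestibular ratios among the 70 members, as deposited, were those of Hspb8 and Hspb6, which encode small heat shock proteins, and of Bag3, which encodes their partner. BAG3 links HSPB8 and HSP70 to autophagy of damaged filament proteins and is best known from muscle. Bag3 had a signal of 55.5 in cochlear HCs and 199.75 in cochlear ENSCs, and of 42.75 in vestibular HCs and 501 in vestibular ENSCs. Cochlear HCs had a Hspb8 signal of 47.5 and cochlear ENSCs of 116, while vestibular HCs had 29.25 and vestibular ENSCs 627. For Hspb6 the signal was 23.5 in HCs and 174.5 in ENSCs of the cochlea, and 28.75 in HCs and 393.5 in ENSCs of the vestibular system, with both HC values in the tied low range. For the 3 genes the HC libraries lay below both ENSC libraries, and the vestibular ENSC library was the highest. The log2 ratios of Bag3 were -1.85 and -3.55, so it was at least 3-fold lower in HCs of both organs, just short of it in the cochlea with a pseudocount of 20 (-1.54). Hspb8 (chr5:116858500-116872873) was short of the threshold in the cochlea (-1.29) and at least 20.5-fold lower in HCs of the vestibular system. Hspb6 (chr7:31337197-31340462) was at least 7.20-fold lower in cochlear and at least 12.9-fold lower in vestibular HCs. Hspb1 and Hspb7 stood at the floor of 20 in 3 libraries and reached 32.75 and 44.75 in vestibular ENSCs. For Hspb1, 55.7% of the 50-nt windows occur elsewhere in the genome, and its vestibular log2 ratio of -0.71 turned to 0.81 after the correction. Hspb11, the intraflagellar transport member, did not follow the others of its name: its signal was 179, 237, 131 and 37.5 in the order cochlear HCs, cochlear ENSCs, vestibular HCs and vestibular ENSCs, which put it past 3-fold higher in vestibular HCs (log2 ratio 1.80), with vestibular ENSCs as the low library. This ratio fell short of 3-fold after the length and GC correction (1.54), with values raised to a floor of 50 (1.39) and with a pseudocount of 20 (1.39).

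Other markers moved with the ENSC excess of Bag3, Hspb6 and Hspb8. Of 20 immediate-early genes, which are induced within minutes of stress or of tissue dissociation, 8 fell past 3-fold on the ENSC side in the cochlea (40.0%, beside 9.2% of all genes) and 11 did in the vestibular system (55.0%, beside 14.3%), with median log2 ratios of -1.41 and -1.70, the latter -0.96 after the length and GC correction, and none was at least 3-fold higher in either organ. Their summed signal was 0.255% of the column in cochlear HCs, 0.709% in cochlear ENSCs, 0.368% in vestibular HCs and 1.30% in vestibular ENSCs and thus, like Bag3, Hspb6 and Hspb8, highest in vestibular ENSCs and next highest in cochlear ENSCs. Mesenchyme markers were lower in HCs too, 3 of 5 by at least 3-fold in the cochlea and 5 of 5 in the vestibular system. Their summed signal was higher in cochlear ENSCs (0.208% of the column) than in vestibular ENSCs (0.0277%), the reverse of Bag3, Hspb6 and Hspb8. Kdr was high in vestibular ENSCs. The part of these markers in the result was not tested. The inducible Hspa1a and Hspa1b did not share this direction, and Dnajb1, the inducible HSP40, was above its other values only in vestibular ENSCs (790, 903.5, 791 and 1935 in the same order of libraries).

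The remaining BAG genes differed less. Bag6, whose product escorts membrane proteins to the ER, was highest in vestibular ENSCs at 751, against 229 in cochlear HCs, 202 in cochlear ENSCs and 262 in vestibular HCs. Bag5 was the highest of the group by ratio in the cochlea (1.23), and Hspbap1 in the vestibular system (1.49), where ENSCs were at the floor. Bag1, Bag2 and Bag4 stayed within 3-fold in both organs.

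**Figure D3:**
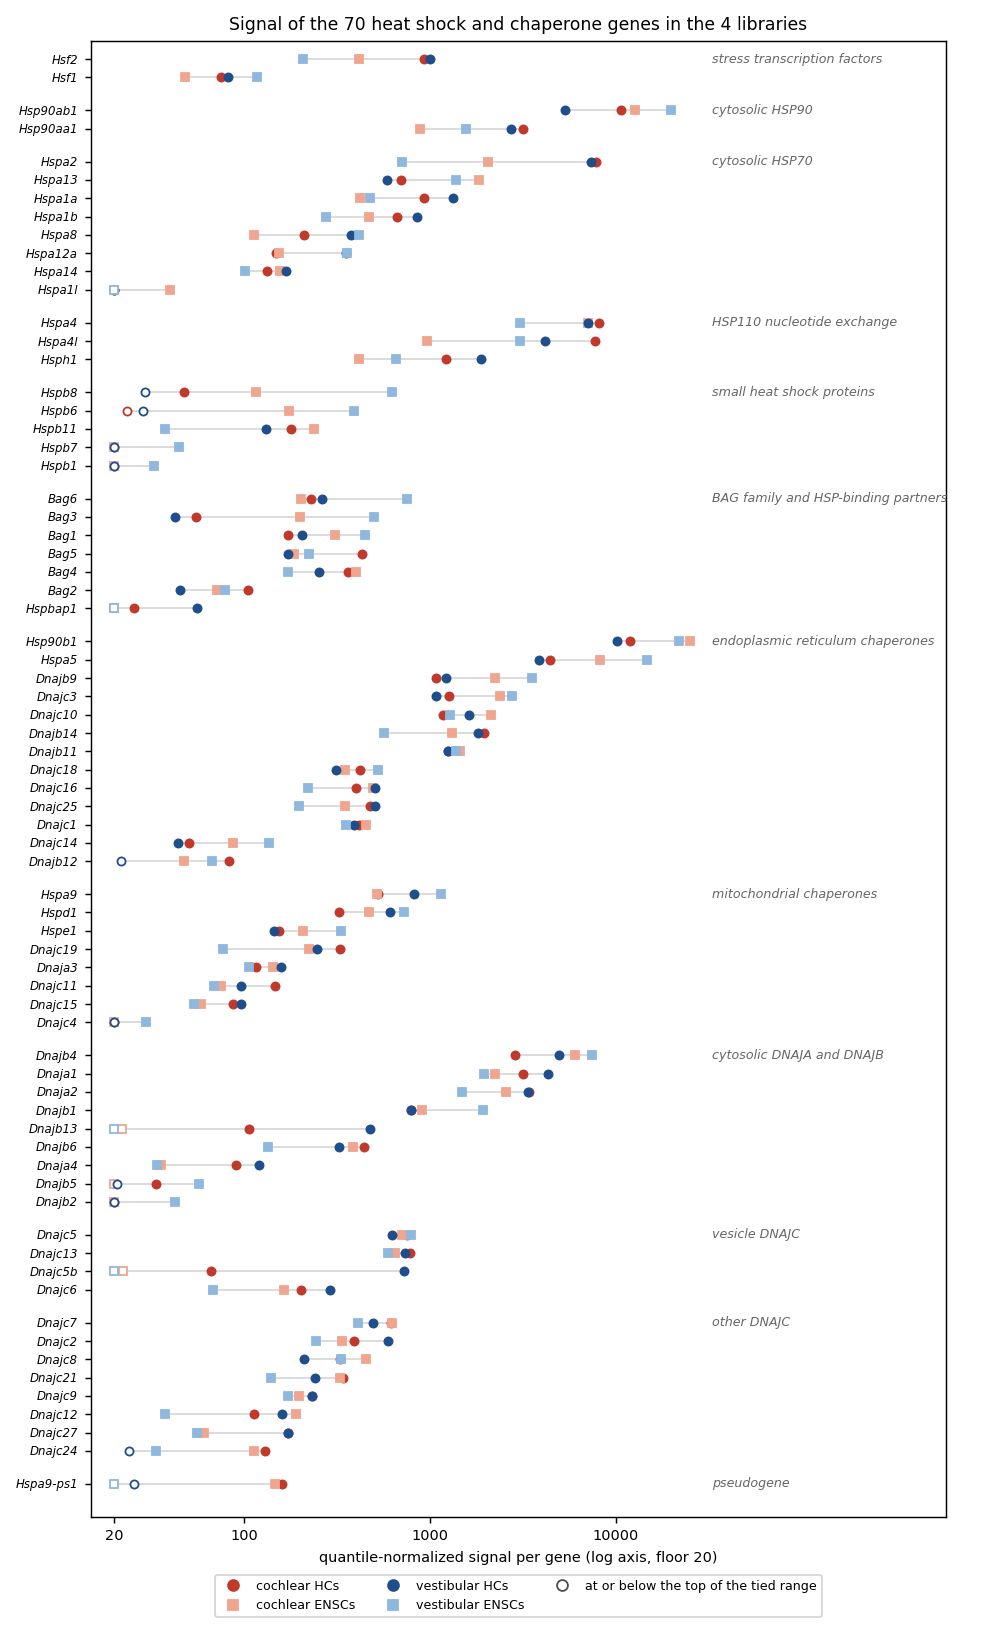
Rows are the 70 genes grouped by role, and the horizontal axis is the quantile-normalized signal on a log scale with its floor at 20. Circles are HCs and squares ENSCs, red for the cochlea and blue for the vestibular system, and open symbols lie in the tied low range. The ER group shows both ENSC squares to the right of both HC circles for Hsp90b1, Hspa5, Dnajb9 and Dnajc3, and Hspa2 shows the opposite order.

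The ER chaperones were the largest pool of chaperone signal and were lower in HCs for the genes that lead it. Their 13 members took 0.318% of the column in cochlear HCs, 0.569% in cochlear ENSCs, 0.291% in vestibular HCs and 0.611% in vestibular ENSCs. Hspa5 (chr2:34627490-34632051) encodes BiP, the HSP70 of the ER that also holds the stress sensors inactive. In the cochlea Hspa5 had a signal of 4455 in HCs and 8238.5 in ENSCs, and in the vestibular system of 3851 and 14789.5. Hsp90b1 (chr10:86152954-86168254) encodes GRP94, the HSP90 of the ER. The signal of Hsp90b1 was 11861 in cochlear HCs, 25000 in cochlear ENSCs, 10183 in vestibular HCs and 21968 in vestibular ENSCs. Per kb of exon Hsp90b1 led the 70 members in cochlear ENSCs with a signal of 6200 per kb. Dnajb9 had a signal of 1078 in cochlear HCs and 2246 in cochlear ENSCs, and of 1219 in vestibular HCs and 3567 in vestibular ENSCs. Its product ERdj4 is a DNAJ partner of BiP that keeps the sensor IRE1 inactive. Cochlear HCs had a Dnajc3 signal of 1270.5 and cochlear ENSCs of 2400.5, while vestibular HCs had 1085 and vestibular ENSCs 2751, and this gene encodes P58IPK, another luminal DNAJ partner. In each of these 4 genes both ENSC libraries were above both HC libraries. The log2 ratios were -0.89, -1.08, -1.06 and -0.92 for the cochlea, and -1.94, -1.11, -1.55 and -1.34 for the vestibular system, in the order in which they were named, so that only Hspa5 in the vestibular system passed 3-fold.

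ER stress elements are shown for the ER members whose windows held them. The element, CCAAT and after 9 bases CCACG, was in the windows of Hspa5, Hsp90b1 and Dnajc3, 3 of the 56 members with a window, beside 0.137% of the 27025 RefSeq genes and 0.186% of the 8607 genes of the table with a window, and it was also in those of Calr, Canx, Creld2 and Pdia6 from the list of other ER folding genes. A second form, ATTGG and after 1 base CCACG, was in the window of Dnajb11, beside 0.0444% of the RefSeq genes and 0.0581% of those of the table, and in that of Herpud1. The window of Dnajb9 held neither form. Capitals mark the matches, which in Hsp90b1 are on both strands.
Hspa5, mm9 chr2:34627515-34627593, plus strand: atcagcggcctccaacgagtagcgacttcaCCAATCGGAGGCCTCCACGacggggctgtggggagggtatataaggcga
Hsp90b1, mm9 chr10:86168248-86168431, minus strand: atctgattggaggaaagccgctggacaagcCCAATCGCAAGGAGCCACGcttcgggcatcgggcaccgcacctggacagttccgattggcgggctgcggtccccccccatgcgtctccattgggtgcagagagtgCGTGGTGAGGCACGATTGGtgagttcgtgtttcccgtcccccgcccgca
Dnajc3, mm9 chr14:119337019-119337097, plus strand: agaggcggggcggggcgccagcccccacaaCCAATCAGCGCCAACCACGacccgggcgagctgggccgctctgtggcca
Dnajb11, mm9 chr16:22857915-22857935, plus strand: cccggcggcgATTGGCCCACG
Dnajb11, a soluble partner of BiP, nevertheless had nearly equal signals of 1255, 1455, 1248 and 1376 in cochlear HCs, cochlear ENSCs, vestibular HCs and vestibular ENSCs.

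Not all ER members were lower in HCs. Dnajb14, a membrane-bound DNAJ protein, was the highest of the 13 by ratio in the vestibular system (1.68), with signals of 1817 in HCs and 566 in ENSCs. After the length and GC correction it was short of 3-fold (1.04), and Dnajc16 was the highest (1.63). Its relative Dnajb12 was the highest by ratio in the cochlea (0.81) and, at 21.75 against 67.5, past 3-fold lower in vestibular HCs, with the smaller value in the tied range and a corrected log2 ratio of -0.80. Dnajc14 was past 3-fold in favour of vestibular ENSCs (-1.63), at signals under 140 in all libraries, and short of it with a floor of 50 (-1.44), a pseudocount of 20 (-1.29) or centring on the median (-1.56), with 36.5% of its exonic bases overlapping another gene. Dnajc10, a disulfide reductase, was lower in cochlear HCs (-0.85) and slightly higher in vestibular HCs (0.33), a direction that turned after the correction (-0.19). Of the 13, 9 were lower in cochlear HCs and 8 in vestibular HCs, beside 5965 and 6418 of the 12814 genes, and the median log2 ratio was -0.29 for the cochlea and -0.76 for the vestibular system.

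The genes of the ER folding pathway that lie outside the naming rule were listed to see the rest of the pathway. Of 17 such genes, 14 were lower in HCs in each organ, where 5965 (cochlea) and 6418 (vestibular system) of all 12814 genes were lower, with median log2 ratios of -0.93 and -1.54. In the cochlea 2 of the 17 were at least 3-fold lower (11.8%, beside 9.2% of all genes), Pdia4 (-2.75) and Sdf2l1 (-1.71). At least 3-fold higher was 1, the sensor Atf6 (1.59), 5.88% beside 8.39% of all genes. After the length and GC correction Sdf2l1 (-1.43) and Atf6 (1.51) fell short of 3-fold. In the vestibular system 8 of the 17 were at least 3-fold lower as deposited (47.1%, beside 14.3% of all genes) and none higher. P4hb, the classical protein disulfide isomerase, had signals of 482.75 in cochlear HCs, 920.75 in cochlear ENSCs, 410.5 in vestibular HCs and 4108 in vestibular ENSCs. Pdia4, a related disulfide isomerase, had 425.75, 2861.5, 352.75 and 3231.5 in the same order. Calr, a lectin chaperone of glycoproteins, had 1090, 2423.5, 888.25 and 5961. The list and the ER members point the same way in both organs, and since their libraries are the same these are not separate observations. The immediate-early genes and mesenchyme markers were higher in ENSCs of both organs too, and Kdr in vestibular ENSCs, with the values given above, and their part in the ENSC excess of the ER genes was not tested.

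**Figure D4:**
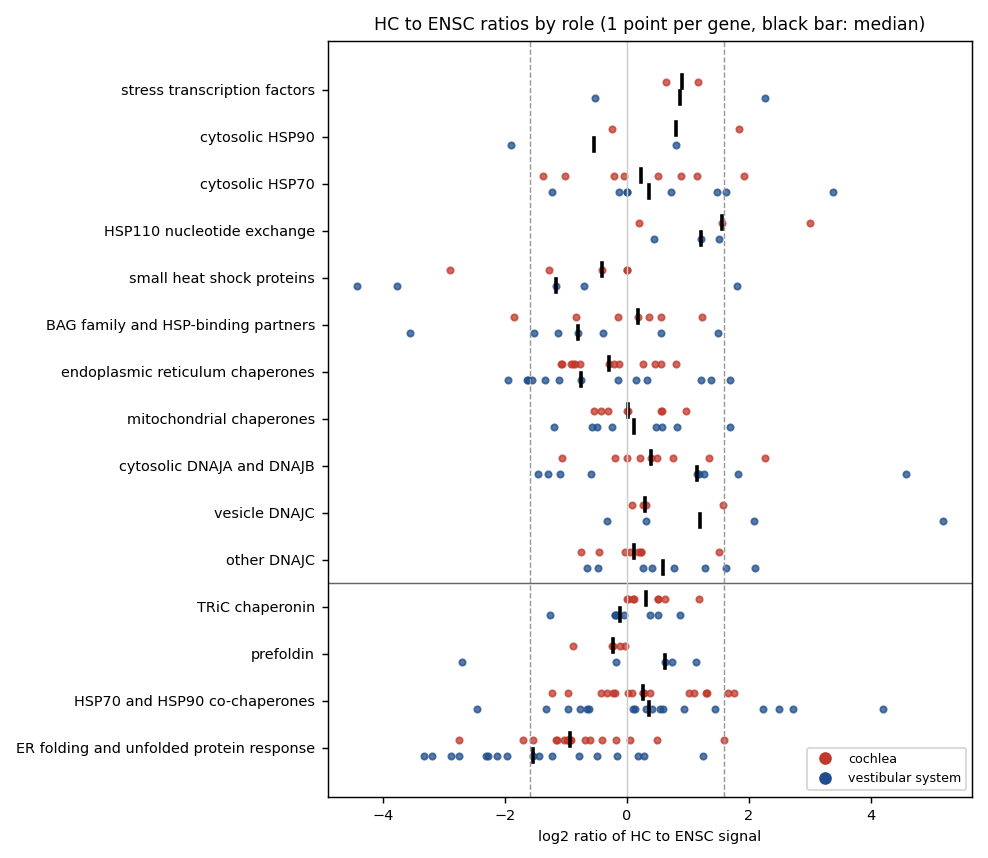
Each point is a gene and each row a role, with the members above the line and 4 lists of chaperone and folding genes outside the naming rule below it, and the horizontal axis is the log2 ratio of HC to ENSC signal, red for the cochlea and blue for the vestibular system. Black bars are medians and dashed lines 3-fold, and of the 4 lists drawn below the line the ER folding genes have the lowest pair of medians, -0.93 and -1.54.

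Mitochondrial chaperones showed little difference between HCs and ENSCs. None of the 8 passed 3-fold in the cochlea and only Dnajc19, a motor subunit of protein import, did in the vestibular system (1.68). Its call was lost after the length and GC correction (0.89) and with a pseudocount of 20 (1.46). For Hspa9 the signal was 524 in HCs and 517.5 in ENSCs of the cochlea, and 817.5 in HCs and 1154 in ENSCs of the vestibular system. It encodes mortalin, the HSP70 of the matrix. In the cochlea Hspd1 had a signal of 324.5 in HCs and 471.5 in ENSCs, and in the vestibular system of 613.5 and 728. The signal of Hspe1 was 155 in cochlear HCs, 208 in cochlear ENSCs, 145 in vestibular HCs and 334.5 in vestibular ENSCs. Hspd1 and Hspe1 encode the HSP60 chaperonin and its lid, and the HC library was the lower of each pair in both organs, with log2 ratios between -1.20 and -0.25. For Hspd1, 51.0% of the windows occur elsewhere in the genome. Of the other members, Dnajc11 had the highest ratio in the cochlea (0.96).

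The cytosolic DNAJA and DNAJB genes start the HSP70 cycle. Dnaja1 had a signal of 3167 in cochlear HCs, 2248 in cochlear ENSCs, 4342 in vestibular HCs and 1966.5 in vestibular ENSCs, higher in HCs in both organs by less than 3-fold. Dnajb4 was lower in HCs in both organs, by log2 ratios of -1.07 and -0.58, the former the lowest of the group in the cochlea. Dnajb5 was the lowest in the vestibular system (-1.46), at signals under 58. Dnaja4 was at least 3-fold higher in vestibular HCs (1.82), at 121 against 34.25, and no longer so with a floor of 50 (1.28) or a pseudocount of 20 (1.38). Dnajb13 (chr7:107651527-107663469), the axonemal member, stood apart from the group. Dnajb13 had a signal of 106 in cochlear HCs and 22.25 in cochlear ENSCs, and of 476 in vestibular HCs and 20 in vestibular ENSCs. It was in the tied range in both ENSC libraries and above it in both HC libraries, at least 4.66-fold higher in cochlear HCs and at least 23.8-fold higher in vestibular HCs. Vestibular HCs were in turn above cochlear HCs, with a cochlear to vestibular log2 ratio of -2.17.

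DNAJC proteins of vesicle traffic had the largest vestibular ratio of all members as deposited, itself a lower bound like that of Dnajb13. Dnajc5b (chr3:19408595-19510862, ENSMUSG00000027606) encodes a relative of the synaptic vesicle cysteine string protein. Cochlear HCs had a Dnajc5b signal of 66.75 and cochlear ENSCs of 22.5, while vestibular HCs had 723.5 and vestibular ENSCs 20. The vestibular HC library stood far above the other 3: at least 36.2-fold above vestibular ENSCs, and above cochlear HCs with a cochlear to vestibular log2 ratio of -3.44. In the cochlea it was just short of 3-fold (1.57), at least 2.93-fold. Its well-known relative Dnajc5, the cysteine string protein itself, was near even, with 752, 713, 629.75 and 793. Dnajc6, which encodes the clathrin uncoating factor auxilin, was at least 3-fold higher in vestibular HCs (289 against 68.5) and not in cochlear HCs (203 against 163.5). Dnajc13, an endosomal DNAJ protein, was within 3-fold in both.

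In the mixed rest of the DNAJC genes, Dnajc27, a small GTPase with a J domain, was at least 3-fold higher in vestibular HCs (1.63) and close to it in cochlear HCs (1.50), with almost the same signal in both HC libraries (172.5 and 173), and with a pseudocount of 20 its vestibular ratio was 1.34. Dnajc12, a partner of the aromatic amino acid hydroxylases, changed direction: it was lower in cochlear HCs (113 against 190) and at least 3-fold higher in vestibular HCs (161 against 37.5). Dnajc8, a splicing-associated member, had the lowest ratio in the vestibular system (-0.66). Dnajc2, Dnajc7, Dnajc9 and Dnajc21 remained within 3-fold in both organs.

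Fewer members were 3-fold apart between the HC libraries of the organs, 5 of 70 beside 9.3% of all genes, than between the ENSC libraries, 8 of 70 beside 15.7%. The cochlear and vestibular HC libraries differed by at least 3-fold in 3 members higher in the cochlea, beside 4.21% of all genes, and 2 lower, beside 5.09%. The ENSC libraries differed in 4 higher in the cochlea, beside 7.8%, and 4 lower, beside 7.94%. Lower in cochlear HCs were Dnajc5b and Dnajb13. Higher in cochlear HCs were Dnajb12, the pseudogene Hspa9-ps1 and Dnajc24, which encodes a diphthamide synthesis protein. With a floor of 50 the ratio of Dnajb12 was 0.74 and that of Dnajc24 1.37, both short of 3-fold, and that of Dnajb12 was also short of it with a pseudocount of 20 (1.31) and with the tied range raised to its top (1.45). Hspa9-ps1 (chrX:57830121-57832053) had signals of 161 and 147 in the cochlear libraries and 25.75 and 20 in the vestibular ones. Dnajc24 had 129 and 114 against 24 and 33.5. Both were thus high in the cochlea in either cell type, and both were past 3-fold between the ENSC libraries as well, Dnajc24 no longer after the length and GC correction (1.57) and both no longer with a floor of 50 (1.55 and 1.19). The other ENSC differences were Hspb11 (2.66) and Dnajc12 (2.34), higher in the cochlea, and Hspb8 (-2.44), Bag6 (-1.89), Hspa8 (-1.87) and Hspa4l (-1.67), lower, of which Bag6 fell short of 3-fold after the correction (-1.10). The correction put Hspa2 (2.05), Hspa1b (1.63) and Dnajb9 (-1.62) past 3-fold between the ENSC libraries, so that 9 members were.

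The HC to ENSC ratio itself differed between the organs by at least 3-fold for 13 members (18.6%), beside 21.4% of all genes. It was larger in the vestibular system for Dnajc5b, Dnajc12, Dnajb13, Hspb11 and Dnajc6, and smaller for Hspb8, Hspa4l, Dnajb12, Dnajb5, Bag3, Bag6, Hsp90ab1 and Bag5. Over the 70 members the median difference, vestibular minus cochlear, was 0.10 on the log2 scale, against -0.05 over all genes. The vestibular ENSC library was the one that most often stood at an end of the 4. It alone was the highest for 25 members (35.7%) and the lowest for 30 (42.9%), against 33.3% and 30.3% of all genes. The ratios that involve this library also went along with GC content, as described below.

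Chaperones outside the named families were compared in 3 further lists. None of the 8 TRiC chaperonin genes, which fold actin and tubulin, was 3-fold apart in either organ, beside 17.6% and 28.1% of all genes. The largest absolute log2 ratios of that list were those of Cct7 in the cochlea (1.17) and Cct5 in the vestibular system (-1.26). Of 5 prefoldin genes, which hand clients to TRiC, only Pfdn5 was past 3-fold, in favour of vestibular ENSCs (-2.70), 20% beside 14.3% of all genes. Of 18 co-chaperones of HSP70 and HSP90, 2 were at least 3-fold higher in cochlear HCs, Fkbp5 (1.76) and Ahsa2 (1.66). They made 11.1% of the list, beside 8.39% of all genes, and none was at least 3-fold lower. Past 3-fold in the vestibular system were 4 on the HC side and 1 on the ENSC side, 27.8% of the list and close to the 28.1% of all genes. Of these, Chordc1 (1.56) and Sil1, the 1 on the ENSC side (-1.55), fell short of 3-fold after the length and GC correction. Fkbp5, an immunophilin of steroid receptor complexes, had signals of 409 in cochlear HCs, 121 in cochlear ENSCs, 448.75 in vestibular HCs and 24.5 in vestibular ENSCs. Ahsa2, an activator of the HSP90 ATPase, had 850.5, 268.75, 1207 and 183.75 in the same order. The HSP90 cofactor Ptges3 was high in 1 library, with a signal of 7095 in vestibular HCs against 562.5, 1325 and 1269.5 in the others.

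The exonic GC content went along with the ratios that involve the vestibular ENSC library and not with the others. Over all genes above the floor the Spearman correlation of GC content with the HC to ENSC log2 ratio was -0.395 in the vestibular system and -0.040 in the cochlea. Over the members it was -0.254 (61 genes) and 0.118 (63 genes). For the cochlear to vestibular log2 ratio it was -0.453 between ENSCs and 0.022 between HCs over all genes. Over the members these values were -0.376 and -0.025. The 7 members lower in vestibular HCs had a median GC content of 53.2% and the 12 higher ones 46.7%. Each log2 ratio was then corrected for the trends with exonic length and GC content over all genes. In the vestibular system 11 members were then at least 3-fold higher in HCs, beside 14.6% of all genes, and 9 lower, beside 10.2%, and in the cochlea 5 were higher, beside 8.97%, and 2 lower, beside 8.4%. The ER genes lay further below 0 in the vestibular system, with Hspa5 at -2.12, Hsp90b1 at -1.60, Dnajb9 at -2.32 and Dnajc3 at -1.81, the last 3 now past 3-fold. Hspa2 moved to 4.13, Hspa1a to 2.74 and Hspa1b to 2.82. Bag3, Hspb6 and Hspb8 were nearer to 0, at -2.49, -2.77 and -3.80, all still past 3-fold. Hsp90ab1 fell short of 3-fold at -1.49. The log2 ratio changed sign for 12 of the 70 members in the vestibular system and for 2 in the cochlea, and between the organs for 13 in ENSCs and 2 in HCs, all of them short of 3-fold as deposited. In the cochlea the correction moved Hspa2 to 2.09, Hspa4l to 2.81 and Bag3 to -1.64, no member lost its call and Dnajc5b passed 3-fold at 1.72.

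**Figure D5:**
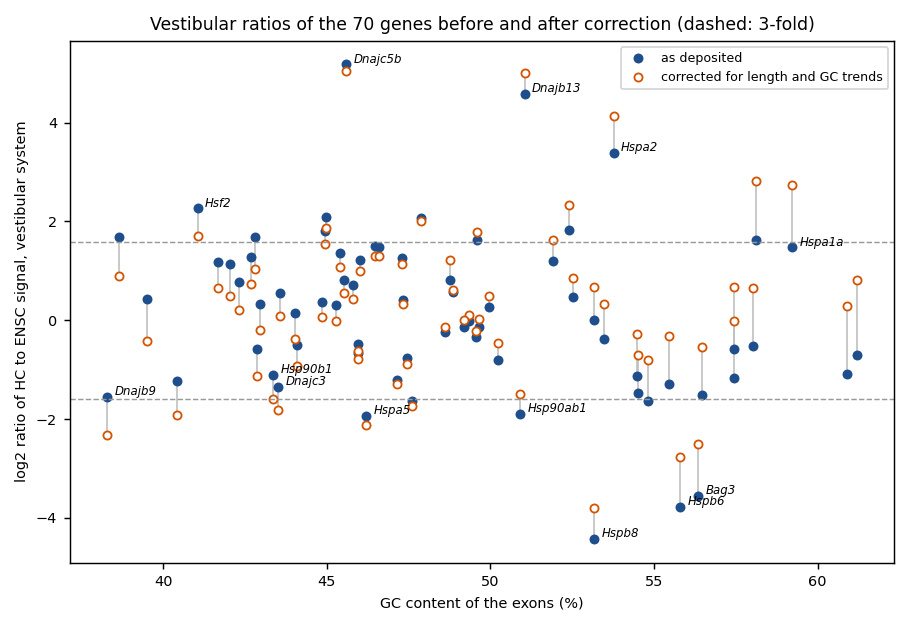
The horizontal axis is the GC content of the exons in percent and the vertical axis the log2 ratio of HC to ENSC signal in the vestibular system, with 1 filled point per gene as deposited and 1 open point after correction for length and GC trends, joined by a line. GC-poor genes such as Dnajb9 move down (to -2.32), GC-rich genes such as Hspa1a move up (to 2.74), and Hspb8, Hspb6 and Bag3 stay below the lower 3-fold line.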

How the data were processed

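RNA of 4 flow-sorted populations (cochlear and vestibular HCs and ENSCs of postnatal day 1 mice) was sequenced. Per the labels and the methods of the study, the authors aligned the first 50 nt of the reads to mm9 with TopHat and counted them per ENSEMBL gene with HTSeq, and the deposited signal is these counts after quantile normalization with a floor of 20. Versions, the annotation release and the use of strand are not given in the sources used here. The deposited values are multiples of 0.25, the library totals are no longer visible, so the depth is unknown, and quantile normalization forces every column to the same distribution, which removes any overall difference between populations. The design text speaks of triplicates, and the table holds 1 column per population.

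Members were the 70 rows whose symbol began with Hsp, Dnaja, Dnajb or Dnajc and the family's next letter or digit, or was Hsf1, Hsf2 or Bag1 to Bag6. The members and lists were chosen with earlier results of these data known. Log2 ratios were taken without a pseudocount, and 3-fold was the threshold, the one the study used. Genes named in the text are 17 well-known members, members past 3-fold with at least 200 in the higher library, the extremes of each role, and the 2 largest ratios of each outside list per organ, besides genes named to complete a count, chosen after their values were seen. Positions, exonic length, GC content and 50-nt windows found elsewhere came from GENCODE vM1 (NCBIM37, the build of the files), in which all 70 members were found. Ratios were corrected for length and GC with local regressions (span 0.3, 2 robust iterations; statsmodels 0.14.6). Promoter windows came from RefSeq (GRCm38.p6), and the motifs were chosen after the values were seen. Python 3.11.15, numpy 2.4.6, pandas 2.3.3 and scipy 1.17.1 were used, and the procedures were tested on simulated data. There were 10 alternative settings.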

Additional observations from a re-analysis of the deposited data

Results flagged for a closer look

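Among the 70 genes, 3 had HC to ENSC ratios in opposite directions in the organs, each by at least 1.5-fold. The difference was not tested, since each population had 1 library. For Dnajc12 the vestibular log2 ratio exceeded the cochlear one by 2.85, with signals of 113 and 190 in HCs and ENSCs of the cochlea and 161 and 37.5 in those of the vestibular system. For Dnajb12 the vestibular ratio was below the cochlear one, by -2.44 on the log2 scale, with 83.5 and 47.75 against 21.75 and 67.5, and the value in vestibular HCs lies in the tied low range. For Dnajb5 the same difference was -2.22, with 33.75 and 20 against 20.75 and 57.25, near the floor in 2 of the 4 libraries.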

How the results depend on the processing

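No ratio past 3-fold changed its direction under the alternatives. Of those short of it, 12 vestibular and 2 cochlear ratios of HC to ENSC, and 13 ratios between the ENSC and 2 between the HC libraries, changed sign under the length and GC correction. Raising all values to a floor of 50 left 3 members at least 3-fold apart between cochlear and vestibular HCs (5 as reported) and a vestibular median of 0.0748 (0.21 as reported), and keeping genes with a signal of 100 or more in a library gave a vestibular median of 0.33. A pseudocount of 20 left 12 of the 19 vestibular members. A pseudocount of 100 left 3 in the cochlea, 9 in the vestibular system, 1 between HCs and 1 between ENSCs, with a vestibular median of 0.0927. At a threshold of 2-fold the counts were 19, 40, 9 and 28 in the same order, and at 5-fold 2, 6, 3 and 4. Raising the tied range to its top took both calls of Dnajb12, and leaving out members with over 50% of windows found elsewhere took none of the rest. The length and GC correction lost 7 calls and gained 10. Centring on the median took the vestibular calls of Dnajc14 and Dnajb12, and with the floor of 50 the cochlear log2 ratio of Dnajb13 fell short at 1.08. No analysis paired by replicate was made, since each population had 1 library, and a fit with the organ as a block, which would leave 1 residual degree of freedom, was not run. Without replicates, the spread behind every value is unknown.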
